A study of Mus musculus with 12 samples.

Results

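A set of 10 genes of the tumour necrosis factor (TNF) system and of the feedback on NF-kB was described in mouse colon: the cytokine gene Tnf, its receptor genes Tnfrsf1a and Tnfrsf1b, the TWEAK gene Tnfsf12 and its receptor gene Tnfrsf12a, the receptor genes Tnfrsf8 (CD30) and Fas, and the feedback genes Tnfaip3 (A20), Nfkbia (IkB alpha) and Birc3 (cIAP2). They were taken by symbol from a table of log2 normalized counts, and all 10 were found among its 40050 genes and among the 23263 genes that reached a mean normalized count of at least 10 and were tested. The list was selected on known results of these same libraries, and which comparison chose the genes is not known. It may have been DSS against water, the genotypes, or the difference in DSS response between genotypes. The values are therefore a description. A p-value beside a gene tells where it stood in a fit across all tested genes and supports nothing further.

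Total RNA of whole colon was sequenced from 4 groups with 3 libraries each. The knockout groups came from Glul∆Lyz2 mice, which lack Glul in the myeloid cells in which the Lyz2 gene is active, and the comparison groups, called f/f here, from Glul flox/flox littermates, which carry the floxed allele without the deletion. Each genotype received plain drinking water (H2O) or DSS, dextran sulfate sodium, which damages the epithelium of the colon and brings on colitis. The deletion is limited to myeloid cells in a tissue of many cell types, and the labels give neither an age nor a statement that each library was 1 animal, so p-values measure only how these samples vary, in part perhaps technically. Libraries carry the number of their label, which in the f/f DSS group runs 1, 2 and 4.

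TNF is made mainly by activated macrophages and T cells, and binds TNFR1, present on most cells, and TNFR2, found chiefly on leukocytes and endothelium. Both receptors lead to the IkB kinase, which frees NF-kB dimers by marking IkB alpha for breakdown, and the freed dimers switch on a set of genes that includes the inhibitors of the pathway themselves, among them A20, IkB alpha and cIAP2. TWEAK acts through the receptor Fn14, the product of Tnfrsf12a, which is low in healthy tissue and induced on epithelium and stroma during injury and repair, and blockade of TNF is an established treatment of inflammatory bowel disease.

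Promoter windows, 250 bases before to 50 bases after the gene start, were taken from RefSeq on GRCm38.p6 and were matched by symbol for 9 of the 10 genes, all but Tnfsf12, with 2 windows for Tnfaip3. Shown are the windows of the ligand gene Tnf, of the inhibitor genes Tnfaip3 and Nfkbia, of Tnfrsf12a, the TWEAK receptor gene, and of Tnfrsf8, whose log2 levels spanned the widest range of the 10. Each runs 5′ to 3′ on the gene's own strand, all on the minus strand, at chr17:35201958-35202257 for Tnf, chr10:19015361-19015660 for Tnfaip3 (the first of its windows), chr12:55492598-55492897 for Nfkbia, chr17:23677400-23677699 for Tnfrsf12a and chr4:145315115-145315414 for Tnfrsf8. Capitals mark matches to the NF-kB consensus on either strand.
Tnf: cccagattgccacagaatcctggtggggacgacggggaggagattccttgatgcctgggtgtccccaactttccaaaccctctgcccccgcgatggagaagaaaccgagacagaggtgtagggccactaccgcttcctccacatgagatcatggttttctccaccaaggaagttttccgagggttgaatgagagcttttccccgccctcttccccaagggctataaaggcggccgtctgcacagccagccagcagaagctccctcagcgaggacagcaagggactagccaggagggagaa
Tnfaip3: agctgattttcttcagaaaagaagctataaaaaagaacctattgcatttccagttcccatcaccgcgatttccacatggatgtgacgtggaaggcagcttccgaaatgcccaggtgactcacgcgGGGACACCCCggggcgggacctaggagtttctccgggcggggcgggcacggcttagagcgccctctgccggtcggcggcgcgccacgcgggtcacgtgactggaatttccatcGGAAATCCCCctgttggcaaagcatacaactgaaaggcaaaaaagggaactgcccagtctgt
Nfkbia: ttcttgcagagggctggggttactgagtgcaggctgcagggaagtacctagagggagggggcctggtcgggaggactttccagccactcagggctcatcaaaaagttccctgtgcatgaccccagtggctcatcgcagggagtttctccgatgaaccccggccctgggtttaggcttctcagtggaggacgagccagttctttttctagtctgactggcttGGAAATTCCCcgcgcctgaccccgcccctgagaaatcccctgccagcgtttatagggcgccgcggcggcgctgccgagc
Tnfrsf12a: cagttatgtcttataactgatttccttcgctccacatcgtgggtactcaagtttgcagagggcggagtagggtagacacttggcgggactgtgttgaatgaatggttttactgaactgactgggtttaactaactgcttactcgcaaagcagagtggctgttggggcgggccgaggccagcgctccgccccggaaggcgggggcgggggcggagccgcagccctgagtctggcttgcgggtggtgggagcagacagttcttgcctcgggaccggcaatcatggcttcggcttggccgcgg
Tnfrsf8: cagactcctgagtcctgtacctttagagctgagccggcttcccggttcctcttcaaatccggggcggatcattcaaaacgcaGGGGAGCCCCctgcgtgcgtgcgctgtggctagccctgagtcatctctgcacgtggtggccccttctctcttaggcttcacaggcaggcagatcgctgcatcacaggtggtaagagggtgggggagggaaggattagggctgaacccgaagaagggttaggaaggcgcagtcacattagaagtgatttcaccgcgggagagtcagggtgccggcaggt
The NF-kB consensus was found in 3 of the 10 windows of these genes and in 4.51% of all 32851 windows of the genome set. The Tnfaip3 window held it at positions -125 and -12 relative to the start, the Nfkbia window at -29 and the Tnfrsf8 window at -168. The AP-1 motif TGANTCA, searched on both strands, was in 3 windows (Tnfrsf8 at -132, Tnfaip3 at -136 and Fas at -211) against 7.81% of all windows, and the STAT motif TTCNNNGAA in 3 (Tnfrsf1a at -244, Tnfrsf1b at -181 and Fas at -93) against 8.30%. No match overlapped one of another motif. A match describes letters only, and the absence of one from the Tnf and Tnfrsf12a windows says only that these letters are not within them.

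Libraries held 14.7 to 41.2 M reads, the knockout DSS libraries 2 and 3 being the shallowest at 19.8 and 14.7 M reads. Glul itself, the deleted gene, had lower mean log2 levels in the knockout, by -0.81 ± 0.56 (SE) on water and -1.17 ± 0.56 on DSS, with limma adjusted p-values of 1 and 0.952. Its normalized counts were 7852, 7709 and 2261 in f/f water and 1655, 5618 and 2725 in knockout water, which overlapped, and 7372, 7895 and 18267 in f/f DSS and 4225, 3273 and 6723 in knockout DSS, which did not. Among cell type markers, the summed FPKM of 7 neutrophil genes was 0.0762 to 2.34 in f/f water, 0.294 to 15.1 in knockout water, 7.42 to 107 in f/f DSS and 42.6 to 319 in knockout DSS, and all 4 of the tested ones were higher on DSS averaged over genotypes. Colon epithelium markers (5 genes) summed to 4856 to 7723, 1239 to 4845, 972 to 2905 and 792 to 1667 in the same order, with 2 of 5 lower on DSS (limma). The sum of 8 macrophage markers overlapped between water and DSS in both genotypes, and that of 7 T cell markers overlapped in the knockout and was 0.995 to 3.10 in f/f water and 5.56 to 9.34 in f/f DSS, with no gene of either list called. Knockout water library 2 stood apart within its group, with the 15.1 of neutrophil markers, a macrophage sum of 216 against 46.9 and 70.3, and the lowest colon epithelium sum, and it had the highest count of its group for 7 of the 10 genes. F/f DSS library 4 had the lowest neutrophil and the highest colon epithelium sum of the DSS libraries. In whole tissue, fewer cells of a type and less RNA per cell cannot be told apart, and the part of these cell mixtures in any difference below was not tested.

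**Figure D1:**
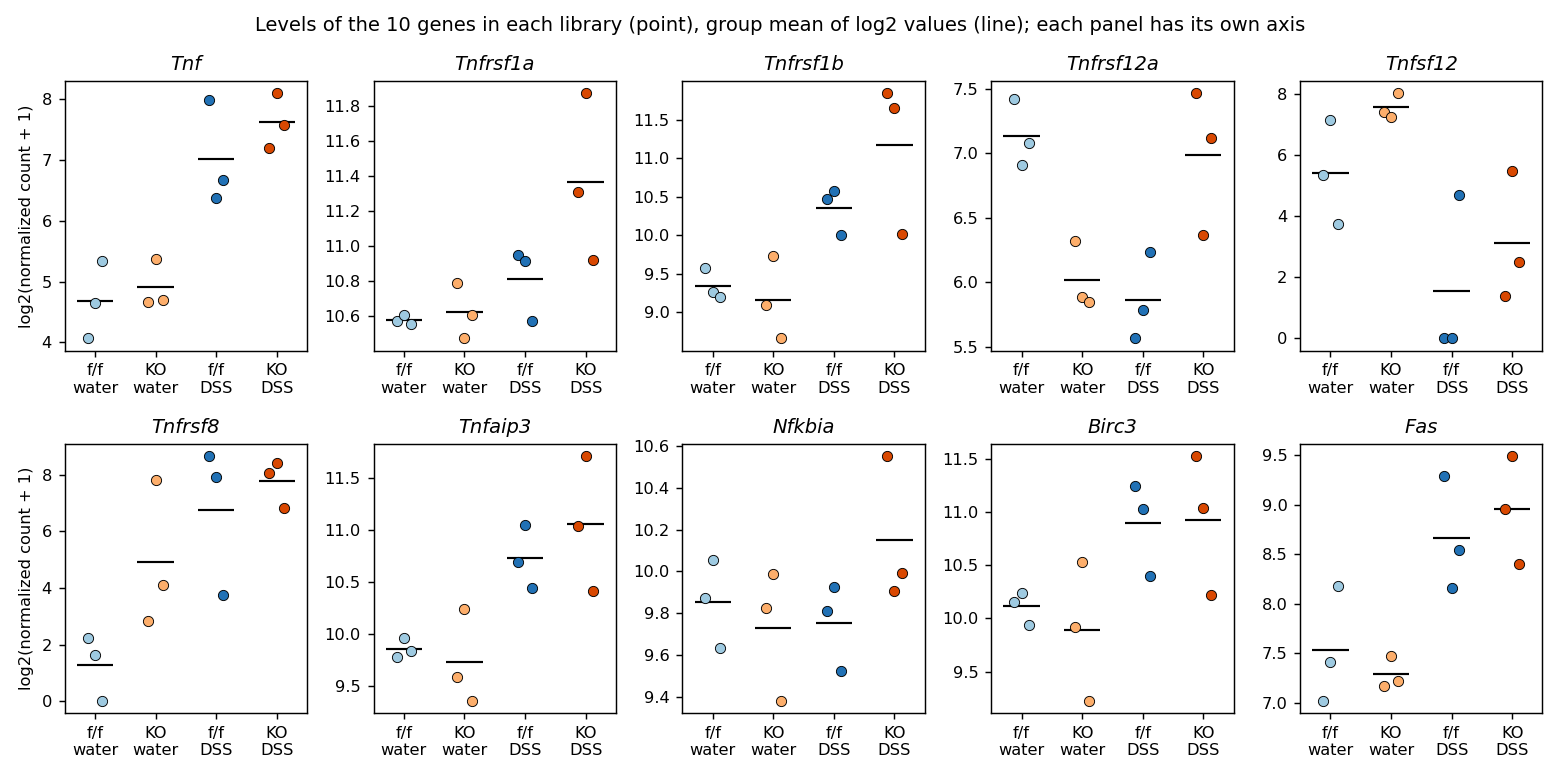
Levels of the 10 genes in each of the 12 libraries, with log2(normalized count + 1) on the vertical axis (own range in each panel), the 4 groups on the horizontal axis (KO, knockout), points for libraries and a line at the group mean of the log2 values. Tnf lay between 15.7 and 40.6 normalized counts in the 6 water libraries and between 82.2 and 273 in the 6 DSS libraries, whereas Tnfrsf12a was low in knockout water and f/f DSS.

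On a scale that allows for gene length, Tnfrsf1a and Nfkbia were the most abundant of the genes in all 4 groups, with 20.5 ± 1.24 (SD, n = 3) and 20.1 ± 3.63 FPKM in f/f water. Birc3 (7.69 ± 1.13 FPKM), Tnfrsf1b (5.95 ± 1.10 FPKM) and Tnfaip3 (4.45 ± 0.39 FPKM) followed, then Fas, Tnfrsf12a, Tnfsf12, Tnf at 0.541 ± 0.232 FPKM and Tnfrsf8 at 0.0151 ± 0.0155 FPKM. In that order the ranges of neighbours overlapped except between Nfkbia and Birc3, Tnfrsf1b and Tnfaip3, and Tnf and Tnfrsf8. In knockout DSS the order was Tnfrsf1a with 37.1 ± 9.68 FPKM, Nfkbia with 25.7 ± 6.83, Tnfrsf1b with 24.1 ± 12.2, Birc3, Tnfaip3, Fas, Tnf, Tnfrsf12a, Tnfrsf8 and Tnfsf12. There only Fas and Tnf, and Tnfrsf8 and Tnfsf12, were neighbours whose ranges did not overlap. Tnf thus stood next to last in f/f water and at place 7 in both DSS groups, and Tnfsf12 stood at place 8 in f/f water, at place 6 in knockout water and last in both DSS groups.

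DSS against water was the strongest contrast for these genes. Averaged over both genotypes, 8 of the 10 passed an adjusted p of 0.05 in limma, where 27.6% of all tested genes did, and of these 7 were higher (13.0% of all tested genes) and Tnfsf12 was lower (14.6%). Tnfrsf12a and Nfkbia did not pass. The median of the 10 log2 differences was 1.0 against -0.07 for all tested genes. Within f/f, Tnf and Tnfrsf8 passed (4.74% of all tested genes), and within the knockout, Tnf, Tnfrsf1b, Tnfaip3 and Fas (10.7%). The lists of the separate genotypes are not shown to differ by this, because the difference itself, the interaction, passed for none of the 10. Libraries of DSS and water did not overlap for 6 of the 10 genes in f/f (34.1% of all tested genes) and for 7 in the knockout (31.4%). Averages share their libraries with the comparisons within each genotype.

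**Figure D2:**
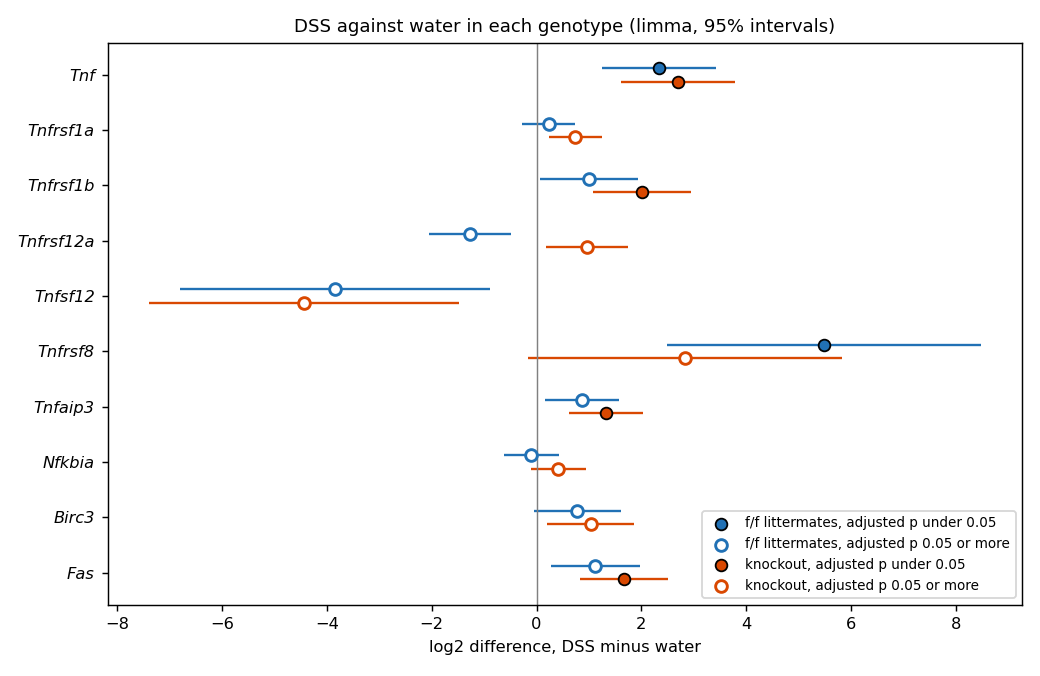
Log2 difference between DSS and water for each gene (horizontal axis) within f/f littermates and within the knockout, with 95% intervals from limma and filled points where the adjusted p was under 0.05. Tnf was higher in both genotypes (2.33 and 2.71), Tnfrsf12a had opposite signs (-1.28 and 0.97), and the intervals of Tnfsf12 and Tnfrsf8 were the widest.

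Tnf, the ligand gene, rose on DSS in both genotypes. Its normalized counts were 15.7, 24.1 and 39.6 in f/f water, 24.3, 40.6 and 25.0 in knockout water, 253, 82.2 and 101 in f/f DSS and 145, 273 and 189 in knockout DSS. Every DSS library lay above every water library, with f/f DSS library 1 about level with the highest knockout library. The log2 difference was 2.33 ± 0.50 (a 5.03-fold difference, limma adjusted p = 0.0315) in f/f, 2.71 ± 0.50 (6.54-fold, adjusted p = 0.0124) in the knockout and 2.52 ± 0.35 averaged (adjusted p = 0.00111). The average passed without any single library, with differences of 2.28 to 2.68. The f/f call was lost without f/f water library 1 or 2 or f/f DSS library 1 (adjusted p up to 0.122 over these settings), and the knockout call without knockout water library 1 or 3 (up to 0.0682).

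Tnfsf12, which encodes TWEAK, was lower on DSS averaged over genotypes, and its counts are uncertain because it shares exon bases with another gene. Its counts were 39.8, 140 and 12.4 in f/f water, 170, 151 and 257 in knockout water, 0, 0 and 24.7 in f/f DSS and 1.61, 43.5 and 4.70 in knockout DSS. The f/f groups overlapped, through DSS library 4 and water library 3, and the knockout groups did not. The averaged log2 difference was -4.14 ± 0.96 (adjusted p = 0.00942), and neither genotype alone passed (-3.85 ± 1.36 with adjusted p = 0.111, and -4.44 ± 1.36 with adjusted p = 0.0564). On the same strand of chromosome 11, 48.3% of the exon bases of Tnfsf12 (69686250 to 69695849, GRCm38) also belong to Tnfsfm13, an annotated readthrough gene that joins Tnfsf12 to Tnfsf13, the gene of the B cell factor APRIL. None of the other 9 genes shared an exon base with a neighbour.

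With the counts of Tnfsf12 and Tnfsfm13 added together, an alternative chosen after seeing the data, the sums were 265, 331 and 260 in f/f water, 439, 541 and 487 in knockout water, 197, 193 and 275 in f/f DSS and 256, 283 and 166 in knockout DSS. The averaged difference of that sum was -0.73 ± 0.19 (adjusted p = 0.0148), with -1.08 ± 0.26 (adjusted p = 0.0275) in the knockout and -0.37 ± 0.26 (adjusted p = 0.409) in f/f. Tnfsf12 took 4.76% to 52.9% of that sum in the water libraries and 0% to 15.4% in the DSS libraries. Tnfsfm13 also shares 44.0% of its exon bases with Tnfsf13, so the sum can hold reads from that gene too, and how reads were divided was not tested. Tnfsfm13 alone did not pass, at -0.24 ± 0.20 averaged (adjusted p = 0.389).

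Tnfsf13, the other partner of the readthrough gene, had 515, 428 and 582 normalized counts in f/f water, 142, 139 and 115 in knockout water, 687, 869 and 733 in f/f DSS and 324, 984 and 360 in knockout DSS. On water all 3 knockout libraries were lower, by -1.93 ± 0.36 in log2 (unadjusted p = 0.000184, adjusted p = 1), while those of Tnfsf12 were all higher than the f/f libraries. On DSS against water Tnfsf13 rose by 1.23 ± 0.26 averaged over genotypes (adjusted p = 0.0057). It shares 60.0% of its exon bases on its strand with neighbours, so its values carry the same uncertainty as those of Tnfsf12.

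**Figure D3:**
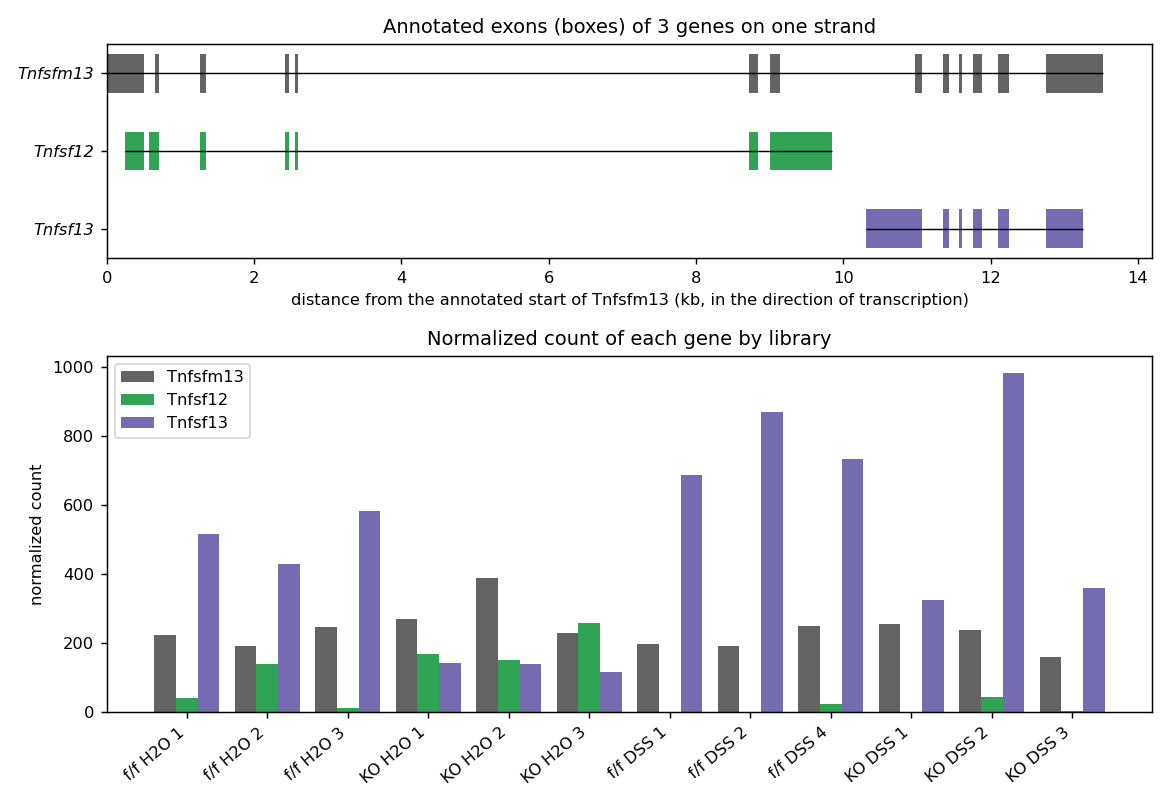
Upper panel, annotated exons (boxes) of Tnfsfm13, Tnfsf12 and Tnfsf13 by distance from the start of Tnfsfm13 in kilobases. Lower panel, normalized count of each gene in each library (bars, from 0; KO, knockout), in which Tnfsf12 was 0 in f/f DSS libraries 1 and 2 while Tnfsfm13 had 197 and 193.

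Of the TNF receptors, Tnfrsf1b (TNFR2) was higher on DSS in both genotypes, and Tnfrsf1a (TNFR1), the more abundant one, differed less. Tnfrsf1b had 764, 612 and 586 normalized counts in f/f water and 547, 849 and 404 in knockout water, against 1415, 1518 and 1029 in f/f DSS and 3666, 3211 and 1036 in knockout DSS. Water and DSS did not overlap in either genotype, and the third knockout DSS library stood at the f/f level. The log2 difference was 2.01 ± 0.43 in the knockout (4.01-fold, adjusted p = 0.0177), 1.0 ± 0.43 in f/f (adjusted p = 0.174) and 1.50 ± 0.30 averaged (adjusted p = 0.00498). The knockout call was lost without knockout water library 1 or 3 or knockout DSS library 2 (adjusted p up to 0.0829).

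Tnfrsf1a had 1526, 1557 and 1503 normalized counts in f/f water, 1772, 1421 and 1558 in knockout water, 1973, 1929 and 1524 in f/f DSS and 2535, 3748 and 1939 in knockout DSS. The f/f groups overlapped and the knockout groups did not. Its averaged difference of 0.49 ± 0.17 (1.40-fold) passed narrowly, with an adjusted p of 0.0458, and passed in only 2 of the 12 fits that left out a library, those without f/f DSS library 4 or knockout DSS library 3. It was 0.74 ± 0.23 in the knockout (adjusted p = 0.0608) and 0.23 ± 0.23 in f/f (adjusted p = 0.569).

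Fas, the receptor that triggers apoptosis through FADD and caspase 8, had 129, 169 and 288 normalized counts in f/f water, 143, 177 and 148 in knockout water, 623, 284 and 371 in f/f DSS and 497, 719 and 338 in knockout DSS. In f/f the lowest DSS library lay just under the highest water library, and in the knockout the groups were apart. It rose by 1.40 ± 0.27 averaged (2.63-fold, adjusted p = 0.00431) and by 1.67 ± 0.39 in the knockout (adjusted p = 0.0229), and was at 1.13 ± 0.39 in f/f (adjusted p = 0.103). The average passed without any single library, and the knockout call was lost without knockout water library 1 or 3 or knockout DSS library 2 (adjusted p up to 0.097).

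Tnfrsf8, the gene of CD30, a receptor best known from activated lymphocytes, was nearly absent from f/f water, with 4, 3 and 0 reads or 3.70, 2.06 and 0 normalized counts. F/f DSS had 402, 237 and 12.4, knockout water 6.07, 225 and 16.3, and knockout DSS 264, 341 and 111. The low f/f DSS library was number 4 and the high knockout water library number 2. These libraries also stood apart in neutrophil and colon epithelium markers. The T cell marker sum of that knockout water library was 5.56 FPKM against 3.99 and 2.75 in the rest of its group. In f/f DSS library 4, the lowest of its group for Tnfrsf8, that sum was the highest, at 9.34 FPKM against 6.65 and 5.56. The log2 difference was 5.48 ± 1.37 in f/f (adjusted p = 0.0458), 2.84 ± 1.37 in the knockout (adjusted p = 0.187) and 4.16 ± 0.97 averaged (adjusted p = 0.00982). At so few reads the fitted size depends on the pseudocount: with 4 in place of 1 the f/f difference was 4.36 (adjusted p = 0.0599), and it passed in only 4 of the 12 fits that left out a library. The knockout difference was 4.29 without knockout water library 2 (adjusted p = 0.0485). Tnfrsf8 and Tnfrsf1b are neighbours on chromosome 4, both on the minus strand and 20266 bases apart (Tnfrsf1b at 145213463 to 145246870, Tnfrsf8 at 145267137 to 145315164), with no shared exon bases.

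Of the feedback genes, Tnfaip3 and Birc3 were higher on DSS averaged over genotypes and Nfkbia did not pass, and differences between these genes were not tested. Tnfaip3, whose product A20 edits ubiquitin chains on the receptor complex and so limits NF-kB, had 877, 1001 and 913 normalized counts in f/f water, 770, 1212 and 655 in knockout water, 1655, 2122 and 1393 in f/f DSS and 2104, 3359 and 1365 in knockout DSS. All DSS libraries were above all water libraries. It rose by 1.10 ± 0.23 averaged (2.14-fold, adjusted p = 0.0059) and by 1.33 ± 0.32 in the knockout (adjusted p = 0.0277), with 0.87 ± 0.32 in f/f (adjusted p = 0.128). The average passed without any single library. The knockout call was lost without knockout water library 1 or 3 or knockout DSS library 1 or 2 (adjusted p up to 0.113).

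Nfkbia, which encodes the inhibitor that holds NF-kB in the cytoplasm, had 936, 1062 and 794 normalized counts in f/f water, 907, 1014 and 664 in knockout water, 896, 972 and 735 in f/f DSS and 1500, 958 and 1016 in knockout DSS. Only knockout DSS library 1 stood clear of the rest, and the groups overlapped in both genotypes. The averaged difference was 0.16 ± 0.17 with a 95% interval of -0.22 to 0.53 (adjusted p = 0.516). The promoters shown above hold the NF-kB consensus in both Tnfaip3 and Nfkbia.

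Birc3, a ubiquitin ligase recruited to the TNF receptors, had 1142, 1209 and 978 normalized counts in f/f water, 965, 1481 and 596 in knockout water, 2429, 2088 and 1348 in f/f DSS and 2945, 2097 and 1189 in knockout DSS. F/f groups were apart, and in the knockout water library 2 exceeded DSS library 3, the shallowest. Its averaged difference was 0.91 ± 0.27 (1.88-fold, adjusted p = 0.0273), which passed in 4 of the 12 fits that left out a library (adjusted p up to 0.0652), and neither genotype alone passed (0.78 ± 0.38, adjusted p = 0.228, and 1.03 ± 0.38, adjusted p = 0.095). Birc2, the related cIAP1 gene 11634 bases away on chromosome 9, did not pass at 0.31 ± 0.14 (adjusted p = 0.116).

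Spread between libraries differed between groups. The SD of log2 values of Tnfrsf1b was 0.21 in f/f water, 0.54 in knockout water, 0.30 in f/f DSS and 1.0 in knockout DSS. In the same order it was 0.16, 0.66, 0.44 and 0.66 for Birc3 and 0.10, 0.46, 0.31 and 0.65 for Tnfaip3. Other genes did not share this order of groups in full. Knockout DSS was also the widest group for Tnfrsf1a (0.03, 0.16, 0.21 and 0.48) and Tnfrsf12a (0.26, 0.26, 0.34 and 0.56). The same held for Nfkbia (0.21, 0.32, 0.21 and 0.35), but not for Tnf, Fas, Tnfsf12 or Tnfrsf8. The SD was 0.64, 0.40, 0.86 and 0.46 for Tnf and 0.59, 0.16, 0.58 and 0.54 for Fas. For Tnfsf12 it was 1.70, 0.40, 2.70 and 2.11, and differences in spread were not tested. Knockout DSS library 3 had the lowest count of its group for 6 of the 10 genes and the highest for none, and library 2 the highest for 6. F/f DSS library 4 was likewise lowest for 6.

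In the knockout against f/f, no gene of the 10 passed the adjusted threshold on either treatment, nor did any of the 23263 tested genes (0% in limma). On water the groups did not overlap for 3 of the 10 (9.45% of all tested genes): Tnfrsf12a was lower in all knockout libraries, and Tnfsf12 and Tnfrsf8 were higher. At an unadjusted p of 0.05, 2 of the 10 were counted on water (Tnfrsf12a and Tnfrsf8; 3.25% of all tested genes) and 2 on DSS (Tnfrsf12a and Tnfrsf1a; 5.22%). On DSS only Tnfrsf12a did not overlap (7.07% of all tested genes). All 10 differences were positive in the knockout on DSS, with a median of 0.58, where 48.8% of all tested genes were positive and the median was -0.01, and on water 4 of 10 were positive, with a median of -0.13. None of these 10 differences on DSS passed the adjusted threshold, and the sign turned when single libraries were left out for Tnfrsf8 (to -0.52 without f/f DSS library 4), Birc3 (to -0.27 without knockout DSS library 1, and also without knockout DSS library 2 or f/f DSS library 4) and Tnfaip3 (to -0.0024 without knockout DSS library 2).

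**Figure D4:**
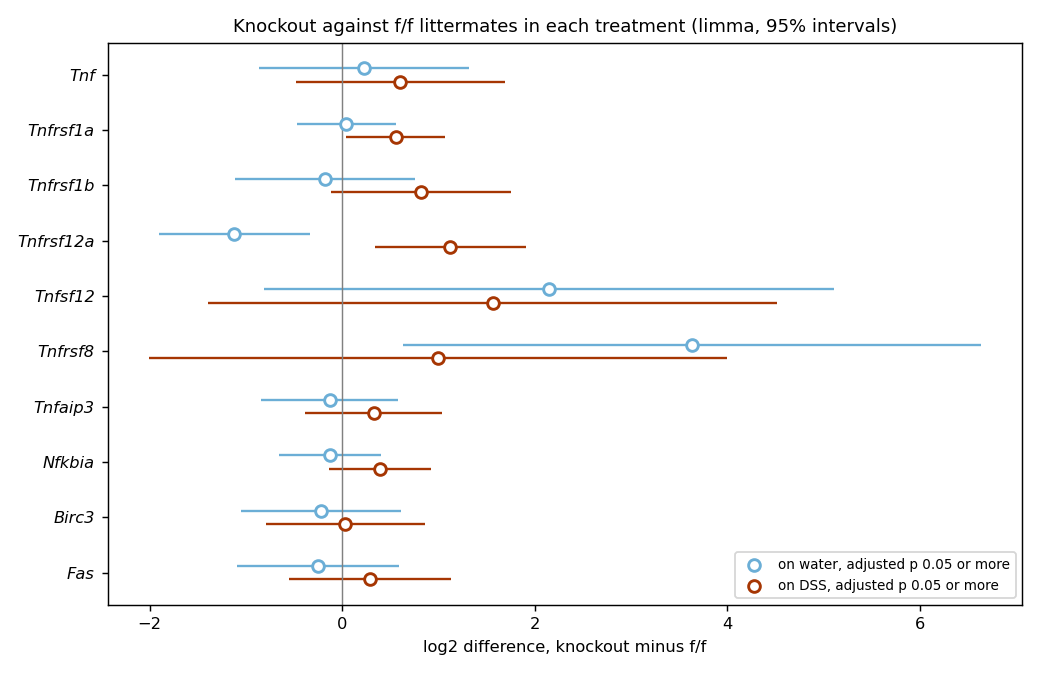
Log2 difference between knockout and f/f littermates for each gene (horizontal axis) on water and on DSS, with 95% intervals from limma. Open points mark that no adjusted p was under 0.05, and Tnfrsf12a is the gene whose estimates lay on opposite sides of 0 with both unadjusted intervals clear of it (-1.12 on water and 1.12 on DSS).

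Tnfrsf12a is the TWEAK receptor gene Fn14 on chromosome 17 (23675445 to 23677468, minus strand). Its mean was higher in f/f water and knockout DSS than in knockout water and f/f DSS. Its normalized counts were 170, 119 and 134 in f/f water and 78.9, 58.0 and 56.7 in knockout water. They were 46.3, 54.0 and 74.1 in f/f DSS and 176, 81.5 and 138 in knockout DSS. There was no overlap in any of the 4 comparisons of groups that differ in 1 factor. The margin was narrow for knockout DSS library 2, at 81.5 from 60 reads. Knockout water library 1 stood at 78.9 from 91 reads, and f/f DSS library 4 at 74.1 from 90 reads.

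The DSS difference of Tnfrsf12a was -1.28 ± 0.36 in f/f (adjusted p = 0.0619) and 0.97 ± 0.36 in the knockout (adjusted p = 0.0986), and the knockout difference was -1.12 ± 0.36 on water (unadjusted p = 0.00901, adjusted p = 1) and 1.12 ± 0.36 on DSS (unadjusted p = 0.00871, adjusted p = 0.951). The interaction was 2.24 ± 0.51 on the log2 scale with a 95% interval of 1.14 to 3.35 and an unadjusted p of 0.000857, the seventh smallest of all 23263, and it did not pass adjustment (adjusted p = 0.9998). It stayed between 2.0 and 2.55 without any 1 library, between 2.17 and 2.44 under the other settings on the count scale, and was 1.46 on the log2 FPKM scale. Of all tested genes 33 (0.142%) had non-overlapping groups in both genotypes with opposite directions, 12 of them lower in f/f and higher in the knockout like Tnfrsf12a. Its counts rested on 55 to 218 reads a library. The list was chosen with results of these libraries known, perhaps including this interaction. The rank and the shares given here are therefore a description and support nothing further.

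The interaction of the other 9 genes ranged from -2.64 ± 1.94 for Tnfrsf8 to 1.0 ± 0.61 for Tnfrsf1b, with unadjusted p-values of 0.124 and above. For Tnf it was 0.38 ± 0.70, with a 95% interval of -1.16 to 1.92, so a difference in response within that interval could not be told from none. At an unadjusted p of 0.05 Tnfrsf12a was the 1 gene of 10 (2.75% of all tested genes).

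Across the 12 libraries the members fell into loose sets, given here as a description with 12 points that share the group structure and the scaling. Tnf and Fas had a Pearson r of 0.95, and 0.87 after group means were subtracted. Tnfrsf1b and Birc3 had 0.91, and 0.90 after subtraction, and Tnfrsf1b and Tnfaip3 had 0.94 and 0.82. Tnf with Tnfrsf1b dropped from 0.79 to 0.08 after subtraction. Nfkbia and Birc3 had 0.68, and 0.82 after subtraction. The r of Tnfrsf12a with the other 9 genes ran from -0.40 (Tnfrsf8) to 0.47 (Nfkbia), and after subtraction from -0.64 (Tnf) to 0.28 (Nfkbia). Among all tested genes with a symbol, the 3 most like Tnf were Upp1 (r = 0.98), which encodes uridine phosphorylase, Otud4 (0.98) and AA467197 (0.97), those most like Tnfrsf12a were Amd2 (0.83), Lekr1 (0.78) and Mrpl17 (0.76), and those most like Nfkbia were Amd-ps3 (0.87), Prep (0.84) and Emilin2 (0.84). Amd2 and Amd-ps3 are copies of the S-adenosylmethionine decarboxylase gene Amd1, and their counts are uncertain because reads may be split among such copies.

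The rest of the pathway was read from 5 lists with 85 entries, of which 75 were tested. On DSS averaged over genotypes 16 were higher and 13 lower in limma (13.0% and 14.6% of all tested genes), with a median log2 difference of 0.05. Within f/f 4 were higher and 5 lower (4.74% of all tested genes passed), and within the knockout 10 and 6 (10.7%). None passed in the knockout against f/f on either treatment or in the interaction (0%). The averaged shares of 13.0% and 14.6% are also the background for the counts of each list below.

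Of the other TNF ligands 9 of 16 were tested and 2 rose. Tnfsf10, which encodes the death ligand TRAIL, had 470, 382 and 913 normalized counts in f/f water and 521, 580 and 255 in knockout water, against 7852, 2806 and 2865 in f/f DSS and 1088, 7472 and 2405 in knockout DSS. All DSS libraries exceeded all water libraries, and the averaged difference was 2.76 ± 0.46 (adjusted p = 0.00207). Tnfsf13 is described above, and Tnfsf13b (BAFF) at 0.71 ± 0.29 and Ltb (lymphotoxin beta) at -0.83 ± 0.39 did not pass.

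Of 20 tested other receptors 2 rose and 3 fell. Tnfrsf19 (TROY), a gene of intestinal stem cells, fell by 1.43 ± 0.23 (adjusted p = 0.00177). Tnfrsf25 (DR3), the receptor of TL1A, fell by 2.02 ± 0.42 (adjusted p = 0.00573). The decoy receptor gene Tnfrsf23 fell by 0.97 ± 0.30 and Tnfrsf11a, the receptor RANK, rose by 0.63 ± 0.16. Tnfrsf9 (4-1BB), a costimulatory receptor of T cells named here after its value was seen, rose by 1.85 ± 0.59 (adjusted p = 0.0364). Its normalized counts were low, at 0.925 to 15.3 on water and 9.51 to 57.2 on DSS. The knockout groups overlapped, through DSS library 2 at 9.51, and the f/f groups did not. Counts of Tnfrsf19 were 252, 268 and 173 in f/f water and 193, 222 and 227 in knockout water, against 100, 50.7 and 63.4 in f/f DSS and 122, 89.7 and 81.4 in knockout DSS, with no overlap.

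Of 7 genes of TNF release and mRNA decay 1 rose and 1 fell. Rhbdf1 (iRhom1), which escorts the TNF-releasing protease ADAM17 to the cell surface, fell by 1.70 ± 0.28 (adjusted p = 0.00216), with 661 to 1823 normalized counts in the water libraries and 268 to 559 in the DSS libraries. Timp3, an inhibitor of that protease, rose by 0.91 ± 0.28 (adjusted p = 0.0305). Adam17 itself at 0.48 ± 0.17 (adjusted p = 0.0522) and Rhbdf2 (iRhom2) at -0.55 ± 0.22 (adjusted p = 0.0793) did not pass.

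The adaptors and ubiquitin enzymes, the largest of the lists, held most of the calls. Of 26 genes 10 were higher and 6 lower (13.0% and 14.6% of all tested genes). Tnip3, which encodes the A20-binding protein ABIN-3, rose by 4.25 ± 0.69 (adjusted p = 0.0019). Its normalized counts were 179, 135 and 42.8 in f/f water, 53.8, 543 and 71.1 in knockout water, 2265, 2727 and 861 in f/f DSS and 5981, 4950 and 698 in knockout DSS, and knockout water library 2 was again the highest water library. Tab3, an adaptor of the kinase TAK1, rose by 0.91 ± 0.13 (adjusted p = 0.00129). Traf1, a TRAF without a ubiquitin ligase domain, fell by 1.95 ± 0.29 (adjusted p = 0.00143), from 291 to 746 normalized counts on water to 66.6 to 262 on DSS, and Rbck1 (HOIL-1), of the linear ubiquitin complex, fell by 0.93 ± 0.15 (adjusted p = 0.0021).

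Of 13 genes of the IkB kinase, the IkB family and the Rel subunits, Rel rose by 1.32 ± 0.34 (adjusted p = 0.0159) and 3 fell, Nfkb2 by 0.62 ± 0.15 (adjusted p = 0.011), Ikbkg, the kinase's regulatory subunit NEMO, by 0.86 ± 0.27 (adjusted p = 0.0323) and Relb by 0.62 ± 0.20 (adjusted p = 0.0359). Rel had 356 to 787 normalized counts on water and 838, 1055 and 924 in f/f DSS, and 4436, 1867 and 759 in knockout DSS, so that the lowest DSS library overlapped the water range. Nfkb2 shares 18.1% and Timp3 21.3% of exon bases with genes on the opposite strand, whose reads cannot be told apart here because the strand setting of the counting is not given in the sources used here.

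**Figure D5:**
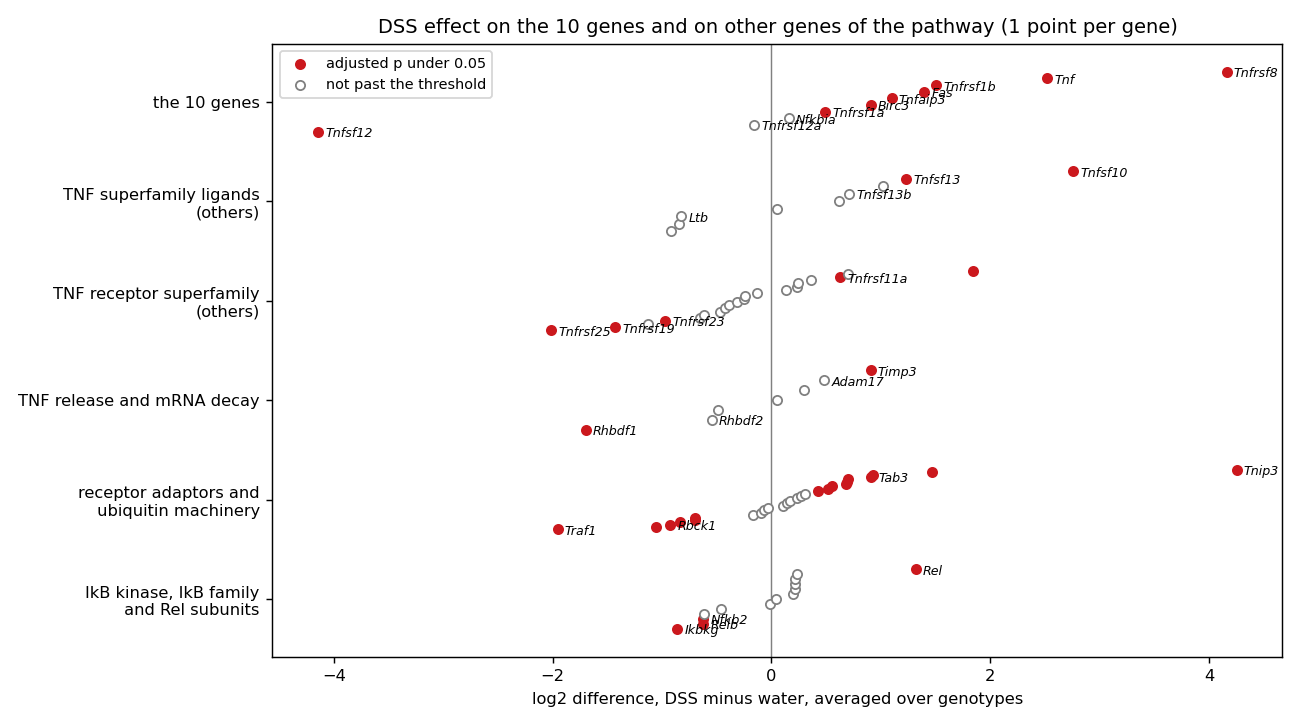
Log2 difference between DSS and water averaged over genotypes (horizontal axis), 1 point per gene, for the 10 genes and for the tested genes of the 5 pathway lists, filled where the adjusted p was under 0.05 and labelled for the 10 genes and the up to 4 genes of smallest p in each list. Tnip3 (4.25), Tnfrsf8 (4.16), Tnfsf10 (2.76) and Tnf (2.52) lay farthest to the right and Tnfsf12 (-4.14) farthest to the left.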

How the data were processed

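Total RNA from mouse colon was sequenced on an Illumina HiSeq system, per the labels' protocols. The main table holds log2 normalized counts made by the authors, per the labels' descriptions, and its values are log2(normalized count + 1). Values were whole multiples of 1 step in each library (100% within 0.01), which gave the reads per library. A second deposited table holds log2(FPKM + 1). The submitters' processing notes name STAR and the builds GRCm38 and mm10, while neither the counter nor its strand setting is given in the sources used here. A further FPKM table, with 4 columns that match no sample label, was not used.

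Groups came from the genotype and treatment labels. Genes averaging 10 or more normalized counts entered a limma 3.58.1 fit under R 4.3.3 (group means, all 12 libraries, variance trend) on log2(normalized count + 1), a scale that understates changes of low genes. The Benjamini-Hochberg adjustment ran over all 23263 genes and the threshold was an adjusted p of 0.05. Errors of log2 differences are SEs, and errors of group means are SDs. The code of the fit was run on simulated counts with known changes and the same dispersion for every gene. That run does not test the calls made in these libraries. Coordinates came from the GENCODE annotation of GRCm38 by gene identifier, and windows from RefSeq by symbol.

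The 10 genes, the 5 pathway lists and the marker lists were chosen with earlier results of these data known. Named were all 10 genes, Glul, and up to 4 genes of each pathway list with the smallest p in the averaged DSS comparison. Also named were the 3 genes most like Tnf, Tnfrsf12a and Nfkbia by Pearson r, within the limited search given above. Birc2, Tnfsf13 and Tnfsfm13 were added as neighbours, and Tnfrsf9 after its value was seen. Alternatives were other filters, pseudocounts and scalings, the FPKM table, sample weights, only the groups compared, the replicate number as a block, and leaving out each library.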

Additional observations from a re-analysis of the deposited data

Results flagged for a closer look

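Tnfrsf12a, the TWEAK receptor gene, had its DSS and water libraries in opposite order in the genotypes: all 3 f/f DSS libraries lay below all f/f water libraries, and all 3 knockout DSS libraries lay above all knockout water libraries. In the knockout the margin was narrow, with 81.5 normalized counts in DSS library 2 and 78.9 in water library 1. The interaction was 2.24 ± 0.51 on the log2 scale (limma, unadjusted p = 0.000857), and it did not pass adjustment over all tested genes (adjusted p = 0.9998). It was smaller on the log2 FPKM scale, and the list of genes may have been chosen with this interaction known.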

How the results depend on the processing

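Averaged over genotypes, 6 to 8 of the 10 genes passed on DSS under every setting run, and Tnf, Tnfrsf1b, Tnfsf12, Tnfrsf8, Tnfaip3 and Fas passed without any single library. Of all 23263 tested genes 6419 (27.6%) passed in that average, and 4150 to 6903 did without single libraries. Within f/f the 2 called genes were 1 with no filter, with a pseudocount of 4 or on the FPKM table, 6 with sample weights, 0 with only the groups compared, and 0 to 3 without single libraries. The smallest counts came without f/f water library 1 or 2 or f/f DSS library 1. Within the knockout the 4 called genes were 8 with sample weights, 1 with only the groups compared and 0 to 6 without single libraries, with 0 without knockout water library 1 or 3 and 1 without knockout DSS library 2. None of the 10 passed in the genotype comparisons or the interaction under any setting. The cause of these shifts was not tested, except that fewer libraries entered where some were left out.

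Numbers showed no clear pairing of the samples: 3 of 15 same-numbered pairs of libraries deviated together with a correlation over 0.1 (range -0.18 to 0.24). Only 2 libraries correlated best with their own number. Deviations from means of 3 libraries cannot decide whether samples were paired. With the replicate block 0 of the 10 passed in f/f, 4 in the knockout and 7 averaged.

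Over all genes, 1103 passed in f/f, against 664 with no filter, 3558 with sample weights, 46 with the replicate block and 14 to 1566 without single libraries. In the knockout 2490 passed, against 4936 with sample weights, 132 with only the groups compared, 1411 with the block and 94 to 3333 without single libraries, and in the genotype comparisons and the interaction 0, against at most 16. Of 526 values of single genes under the settings other than leaving out a library, none that passed changed sign. Of these values 15 newly passed and 14 no longer did. Fits that left out a library are not in this count, and every call within a genotype was lost in some of them. Quantile normalization moved the median log2 difference of all genes in the knockout from -0.10 to 0.01. Few reads limit the values of Tnfrsf8 and Tnfsf12, which had 0 to 4 reads in several libraries. These were mostly libraries of 27.1 to 36.7 M reads and not the shallowest ones.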

Other observations

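Marker sums of the other cell types in whole colon, in FPKM, ranged over the 12 libraries from 309 to 2538 for 4 smooth muscle genes, from 1357 to 4167 for 6 general epithelial genes, from 23.1 to 146 for 5 B and plasma cell genes, from 29.6 to 122 for 4 fibroblast genes, from 3.32 to 15.2 for 3 endothelial genes, from 0.527 to 4.26 for 3 adipocyte genes and from 0 to 1.83 for 4 eosinophil genes. Of the tested genes in these 7 lists, 2 epithelial ones were higher on DSS averaged over genotypes and none was lower. Lyz2, the gene whose promoter drives the deletion, is among the macrophage markers and was not called.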
